A study of Mus musculus with 36 samples.

Results

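The comparison described here is the difference between 2 genotypes of mouse embryonic fibroblasts (MEFs) in their transcript response to halofuginone. It was computed for every gene as the halofuginone response of PERK -/- cells minus that of WT cells, with each response taken over the DMSO vehicle of its own genotype. It uses 12 of the 36 bulk RNA-seq libraries of the series, with 3 libraries in each of 4 groups: WT with DMSO, WT with halofuginone, PERK -/- with DMSO and PERK -/- with halofuginone. PERK -/- cells lack the kinase PERK and are called Perk-null below. The series also holds MEFs of both genotypes given thapsigargin, BtdCPU, or thapsigargin together with either compound, and its title names activation of a compensating kinase in Perk-deficient cells as the theme. The labels give no dose, treatment time, batch or passage, and they name no second line of either genotype, so the PERK genotype and any other difference between the cell lines cannot be told apart. Nothing in the labels says that replicates came from separate cultures, so p-values measure the spread between these libraries, which may be technical.

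PERK, GCN2, HRI and PKR are kinases that phosphorylate the translation factor eIF2 alpha, each in answer to a different stress, and so start the integrated stress response (ISR). PERK answers misfolded protein in the endoplasmic reticulum (ER), and GCN2 answers uncharged tRNA. Halofuginone blocks the prolyl-tRNA synthetase activity of the protein encoded by Eprs, which leaves the tRNA for proline uncharged and activates GCN2. In the ISR most translation falls, while the transcription factor ATF4 is translated more and raises genes of amino acid supply, redox balance and feedback on eIF2 alpha itself.

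The 12 libraries held 33630755 to 36723456 counts, and 13395 to 14273 genes had at least 10 counts. Levels are given in CPM, edgeR's counts per 1000000 counts of a library, and are scaled between libraries by edgeR's TMM factors. Eif2ak3, the PERK gene, stood at 30.3, 32.4 and 30.7 CPM in WT DMSO, 29.3, 32.7 and 55.5 CPM in WT halofuginone, 9.37, 9.67 and 10.8 CPM in Perk-null DMSO and 10.1, 7.66 and 10.1 CPM in Perk-null halofuginone libraries. Every Perk-null library lay below every WT library, and Perk-null transcript remained detectable, which says nothing on PERK protein. Fibroblast markers summed to 18970 to 22060 CPM in WT DMSO, 11480 to 12940 in WT halofuginone, 12970 to 14360 in Perk-null DMSO and 10250 to 11240 in Perk-null halofuginone libraries, and 9 of the 10 were above the floor of 3 counts in every library. The 2 cell lines differ beyond PERK: Xist, the RNA that silences an X chromosome, had 0 counts in all 6 WT libraries and 400 to 519 CPM in the Perk-null libraries. Ddx3y, a Y-linked gene, ran from 88.1 to 347 CPM in WT libraries and was at the floor in all Perk-null libraries. Xist and Ddx3y were chosen after their values were seen. In the DMSO libraries Trp53, the p53 gene, stood at 252 to 336 CPM in WT and 36.2 to 40.8 CPM in Perk-null cells, and Cdkn2a, a cell cycle inhibitor gene, at 8.29 to 10.2 and 433 to 473 CPM. WT halofuginone replicate 3 stood farthest from its group mates, with an SD of 0.415 over genes of its log2 difference from them, against 0.171 to 0.325 for the other 11 libraries.

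ATF4 with its C/EBP partners binds composite elements of the form TGATGNAA. The promoters of 3 ISR genes whose response differed between the genotypes are shown, because these are the members of the ISR list below that were both called and hold that element within 250 bases before to 50 bases after the start site. The 300 bases are RefSeq sequence on GRCm38.p6, written along the gene's strand, 5′ to 3′, with the element in capitals; all 3 hold it in the reverse orientation, and the deposited data were built on GRCm39. Atf3 encodes a repressor induced by stress (chr1:191183284-191183583, minus strand, element starting at position -110 from the start site):
Atf3: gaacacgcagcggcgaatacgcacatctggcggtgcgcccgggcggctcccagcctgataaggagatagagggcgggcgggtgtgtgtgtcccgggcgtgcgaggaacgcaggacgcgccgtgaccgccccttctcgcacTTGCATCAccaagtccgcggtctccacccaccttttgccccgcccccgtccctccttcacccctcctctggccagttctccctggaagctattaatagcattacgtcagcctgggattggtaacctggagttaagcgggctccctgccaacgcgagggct
Chac1 encodes an enzyme that degrades glutathione (chr2:119350992-119351291, plus strand, element at -193):
Chac1: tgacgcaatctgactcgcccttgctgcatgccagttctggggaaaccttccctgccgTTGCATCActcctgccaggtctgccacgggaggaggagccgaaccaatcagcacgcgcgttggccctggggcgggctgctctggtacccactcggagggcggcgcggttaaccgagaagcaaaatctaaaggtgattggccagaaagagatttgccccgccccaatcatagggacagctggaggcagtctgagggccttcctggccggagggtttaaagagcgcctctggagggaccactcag
Herpud1 encodes an ER membrane protein of the degradation machinery (chr8:94386179-94386478, plus strand, element at -112):
Herpud1: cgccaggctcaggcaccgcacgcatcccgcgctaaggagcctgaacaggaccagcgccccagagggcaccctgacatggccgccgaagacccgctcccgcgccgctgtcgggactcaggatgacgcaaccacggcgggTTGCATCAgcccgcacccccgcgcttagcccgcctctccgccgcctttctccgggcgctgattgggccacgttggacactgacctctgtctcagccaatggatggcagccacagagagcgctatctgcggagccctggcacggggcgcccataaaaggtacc
Read on both strands, the element was present in 6 of the 20 ISR list promoters found (30%), 4 of 17 amino acid synthesis promoters (23.5%), 2 of 11 transporter promoters (18.2%) and 5 of 13 synthetase promoters (38.5%). It was present in 4.06% of all 27025 promoters of the same length and in 2.58% of the 11763 promoters of tested genes. The other 3 ISR list genes with the element, Nupr1, Trib3 and Fgf21, did not pass the test of a genotype difference. A match describes the sequence and does not show a bound site.

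Of 16065 genes tested, 5615 (35%) had a halofuginone response that differed between the genotypes at an edgeR adjusted p below 0.05. In 2807 (17.5%) the response was more positive in Perk-null cells and in 2808 (17.5%) it was more negative. The response itself was called for 10949 genes in WT (68.2%) and for 6785 in Perk-null cells (42.2%). The median absolute response was 0.811 on the log2 scale in WT and 0.431 in Perk-null cells, and the WT response was the larger for 74.4% of tested genes. Across genes the responses of the 2 genotypes, which share no library, had a Pearson r of 0.592 and a Spearman rho of 0.667, given as a description because genes are not independent replicates.

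**Figure D1:**
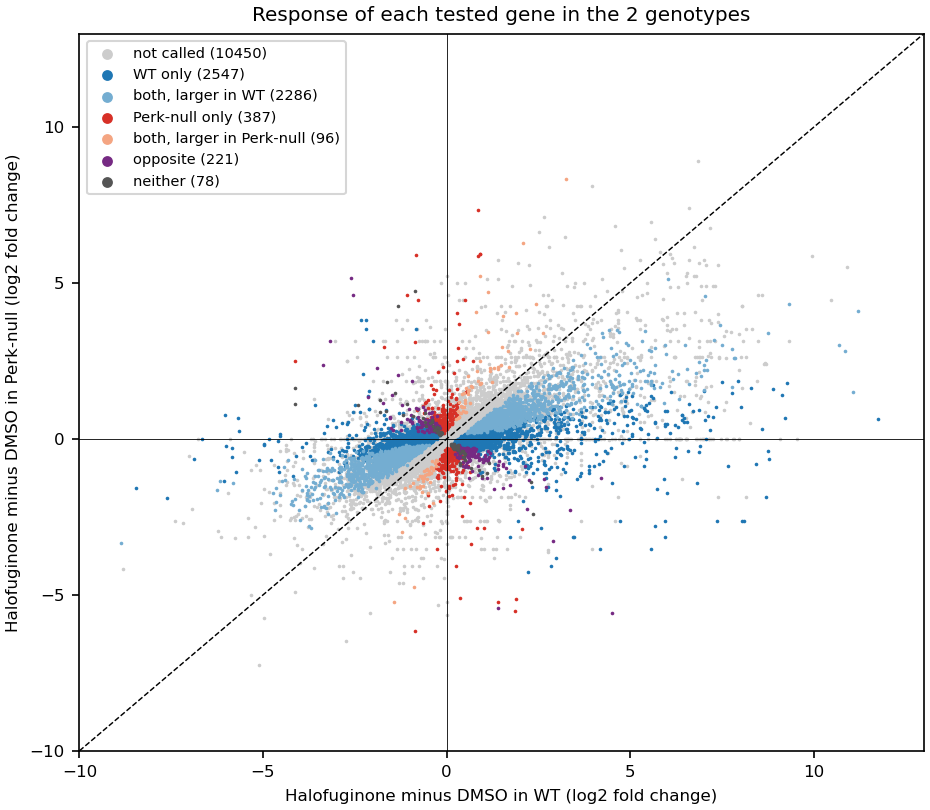
Response to halofuginone of each of the 16065 tested genes in WT (x axis) and Perk-null cells (y axis), as log2 fold changes over DMSO from edgeR. Colours mark which genotype carried a called difference, grey points were not called, and the dashed line marks equal responses; 4833 of the 5615 coloured genes belong to the blue classes, where the WT response was called and was the larger or the only one called. Points far from 0 on one axis include genes with few counts.

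Each called gene was assigned to the genotype that carried its difference. WT carried 4833 of the 5615 (86.1%): in 2547 only the WT response was called (1303 rises and 1244 falls), and in 2286 both responses were called in the same direction and the WT response was larger (1113 rises and 1173 falls). Perk-null cells carried 483 (8.6%), of which 387 had only the Perk-null response called (204 rises, 183 falls) and 96 had both called with the larger change in Perk-null cells (53 rises, 43 falls). In 221 genes both responses were called in opposite directions: 126 rose in WT and fell in Perk-null cells, and 95 did the reverse. In the remaining 78 neither response was called. "Only" here means that the other response missed the threshold, not that it was 0. The classes compare responses and not levels. The genotypes differed in 7949 tested genes (49.5%) in DMSO and in 10579 (65.9%) under halofuginone. The part of the DMSO level in the classes was not tested. With replicate numbers within a genotype as a block, the class with the larger Perk-null change grew to 207 genes and the class of opposite responses to 453. The former class held 62 genes without WT halofuginone replicate 3 and 63 without WT DMSO replicate 2.

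ISR regulators and effectors rose in both genotypes. Of 21 tested, 20 rose in WT (34.7% of all tested genes did) and 20 in Perk-null cells (21.2% did), with median log2 responses of 2.36 and 2.26. The response differed in 12, being smaller in Perk-null cells in 9 (17.5% of all tested genes were called in that direction) and more positive in 3, with a median difference of -0.24 (-0.28 to -0.13 with each library left out, weakest without Perk-null halofuginone 1). In the 9, which were Atf3, Stc2, Chac1, Ddit3, Ppp1r15a, Herpud1, Atf4, Atf5 and Cebpg, both genotypes rose and WT rose more. 

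Atf4, which encodes the central transcription factor of the ISR, stood at 371, 393 and 317 CPM in WT DMSO, 881, 829 and 782 CPM in WT halofuginone, 533, 646 and 566 CPM in Perk-null DMSO and 869.9, 869 and 808 CPM in Perk-null halofuginone libraries. The Perk-null DMSO libraries all lay above the WT DMSO libraries, and the halofuginone libraries of the 2 genotypes overlapped. On the log2 scale the rise of 1.20 in WT cells exceeded that of 0.55 in Perk-null cells, and the difference was -0.66 (SE 0.151, edgeR adjusted p = 0.00104). The genotypes differed by 0.69 in DMSO (edgeR adjusted p = 2.67e-06) and by 0.03 under halofuginone (edgeR adjusted p = 0.809). Ppp1r15a encodes the GADD34 subunit that brings a phosphatase to eIF2 alpha and so ends the ISR. Its level was 19.6, 14.8 and 16.8 CPM in WT DMSO, 317, 296 and 359.5 CPM in WT halofuginone, 30.7, 35.9 and 32.3 CPM in Perk-null DMSO and 340.5, 354 and 348 CPM in Perk-null halofuginone libraries. It was likewise higher in Perk-null cells before treatment and overlapped between genotypes under halofuginone, and its rises of 4.25 and 3.40 differed by -0.85 (SE 0.303, edgeR adjusted p = 0.029). That call was kept in only 4 of the 12 fits that left out 1 library, those without WT DMSO replicate 1 or 3, WT halofuginone replicate 2 or Perk-null DMSO replicate 1, and the difference ran from -0.96 to -0.73.

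Atf3 had the largest difference of the list. It stood at 1.09, 1.10 and 1.27 CPM in WT DMSO, 153, 148 and 153 CPM in WT halofuginone, 2.19, 2.92 and 2.69 CPM in Perk-null DMSO and 55.7, 54.99 and 77.6 CPM in Perk-null halofuginone libraries. Perk-null cells had the higher DMSO level and the lower halofuginone level, with no overlap in either condition. Its log2 rises of 7.04 in WT and 4.59 in Perk-null cells differed by -2.45 (SE 0.332, edgeR adjusted p = 1.5e-06). Chac1 ran at 7.46, 10.9 and 3.78 CPM in WT DMSO, 150.4, 141 and 132 CPM in WT halofuginone, 10.1, 11.4 and 8.66 CPM in Perk-null DMSO and 98.4, 86.3 and 109 CPM in Perk-null halofuginone libraries. The DMSO libraries overlapped and every WT halofuginone library was above every Perk-null one, giving a difference of -0.97 (SE 0.291, edgeR adjusted p = 0.0099). Ddit3, the gene of the stress transcription factor CHOP, stood at 13.9, 16.05 and 10.8 CPM in WT DMSO, 149, 173 and 125 CPM in WT halofuginone, 22.2, 21.6 and 18.5 CPM in Perk-null DMSO and 119, 128 and 115 CPM in Perk-null halofuginone libraries. Perk-null DMSO libraries were above WT DMSO libraries and the halofuginone groups overlapped. Its rises of 3.45 and 2.54 differed by -0.91 (SE 0.295, edgeR adjusted p = 0.0158), a call that was lost without WT DMSO replicate 3 (range over libraries left out -1.05 to -0.77). Ddit3 overlaps Mars and Mbd6, and since use of strand in counting is not given in the sources used here, its counts can include theirs. The same holds for Acss2, Ccl5, G6pdx, Glul, Gnl3, Hk1, Il11, Nr4a2, Pfkm, Plekhg4, Plk3, Slc6a9 and Wdr43, which overlap other tested genes.

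Sesn2, Vldlr and Ddit4 were the ISR list members with a called positive difference. Sesn2, whose product restrains mTORC1 when leucine is short, stood at 35.3, 34.5 and 31.3 CPM in WT DMSO, 109, 108 and 105 CPM in WT halofuginone, 15.2, 12.8 and 13.3 CPM in Perk-null DMSO and 99.8, 108 and 85.4 CPM in Perk-null halofuginone libraries. Perk-null DMSO libraries were well below WT DMSO libraries and the halofuginone libraries of the genotypes overlapped. Its rises of 1.67 and 2.83 differed by 1.16 (SE 0.122, edgeR adjusted p = 2.81e-08). Ddit4 encodes REDD1, another inhibitor of mTORC1, and stood at 39.7, 58.3 and 30.4 CPM in WT DMSO, 23.3, 29.1 and 12.9 CPM in WT halofuginone, 16.8, 19.8 and 15.1 CPM in Perk-null DMSO and 27.98, 33.6 and 16.7 CPM in Perk-null halofuginone libraries. Halofuginone and DMSO libraries overlapped in Perk-null cells and not in WT. It fell by 0.98 in WT (edgeR adjusted p = 0.00181), changed by 0.60 in Perk-null cells (edgeR adjusted p = 0.0704), and differed by 1.58 (SE 0.377, edgeR adjusted p = 0.00156). The Perk-null change was called as a rise with replicate numbers as a block (0.57, edgeR adjusted p = 0.000391, within genotype; 0.56, edgeR adjusted p = 0.00125, shared), without Perk-null halofuginone replicate 3 (0.85, edgeR adjusted p = 0.0177) and with no filter on low counts, where Ddit4 is a gene of opposite responses. Trib3, a pseudokinase gene induced by ATF4 and CHOP, stood at 10.3, 18.9 and 6.62 CPM in WT DMSO, 151, 166 and 91.8 CPM in WT halofuginone, 14.04, 17.4 and 9.52 CPM in Perk-null DMSO and 203, 208 and 169.8 CPM in Perk-null halofuginone libraries. Halofuginone libraries of the genotypes did not overlap, its rises were 3.51 and 3.83, and the difference of 0.32 (SE 0.382, edgeR adjusted p = 0.549) did not pass the threshold.

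**Figure D2:**
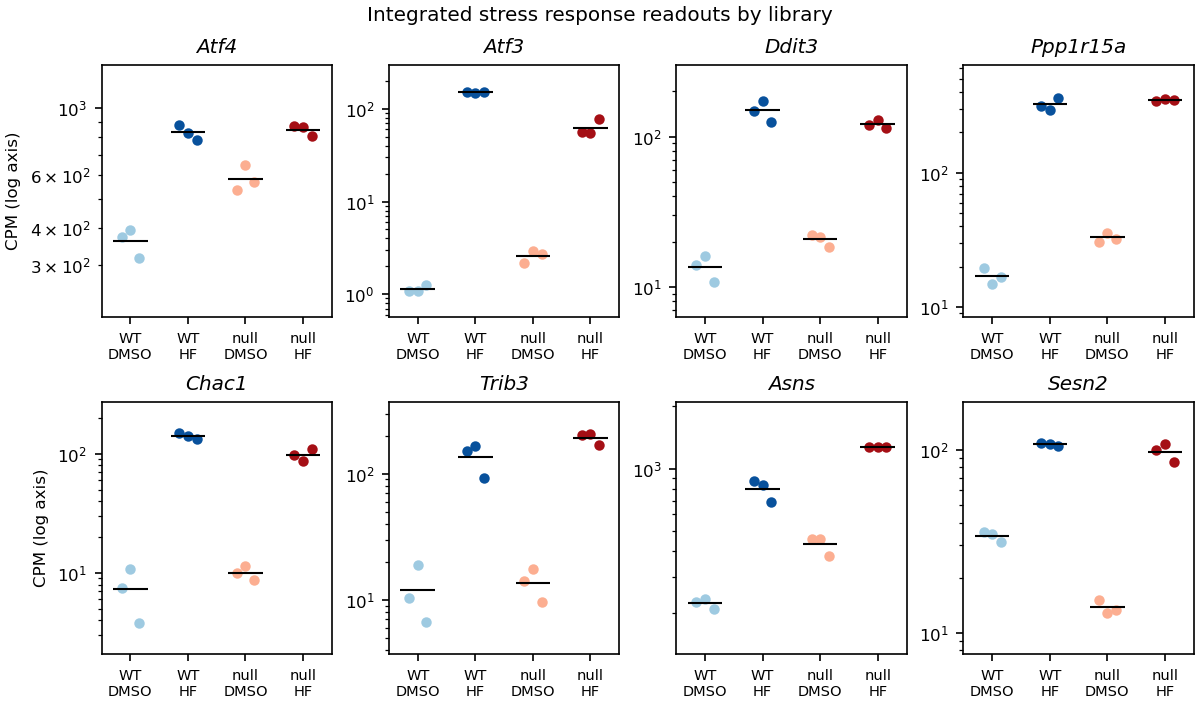
Levels of 8 ISR readouts in CPM (log axis) in each of the 12 libraries; HF is halofuginone, null is Perk-null, points are libraries in replicate order and bars are means of 3. Atf4 reached 782 to 881 CPM in both genotypes under halofuginone from different DMSO levels, while Atf3 reached 148 to 153 CPM in WT and 55.0 to 77.6 CPM in Perk-null cells.

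Of 21 amino acid synthesis enzymes, 13 rose in WT and 15 in Perk-null cells (medians 0.72 and 0.76), and the difference was positive in 8 and negative in 2 (median 0.09, 0.06 to 0.26 with each library left out), where 17.5% of all tested genes were called in each direction. The negative count was 1 without Perk-null halofuginone replicate 2. Asns, which makes asparagine, stood at 227, 235 and 209 CPM in WT DMSO, 871, 835 and 689 CPM in WT halofuginone, 457, 459 and 379.6 CPM in Perk-null DMSO and 1266, 1276 and 1274 CPM in Perk-null halofuginone libraries. Its Perk-null libraries were above the WT libraries in both conditions, yet its rises of 1.83 and 1.56 gave a difference of -0.28 (SE 0.146, edgeR adjusted p = 0.142) that did not pass. Psat1, of serine synthesis, stood at 383, 344 and 325 CPM in WT DMSO, 634, 668 and 432 CPM in WT halofuginone, 642, 673 and 615 CPM in Perk-null DMSO and 1029, 1132 and 1017 CPM in Perk-null halofuginone libraries. Perk-null libraries were the higher in both conditions, both genotypes rose by 0.72, and the difference did not pass (SE 0.157, edgeR adjusted p = 1). Cth, which makes cysteine from cystathionine, stood at 27.7, 36.7 and 22.3 CPM in WT DMSO, 72.3, 62.1 and 27.6 CPM in WT halofuginone, 31.8, 40.7 and 34.4 CPM in Perk-null DMSO and 202, 205 and 204 CPM in Perk-null halofuginone libraries. The DMSO libraries overlapped, every Perk-null halofuginone library was above every WT one, and the rises of 0.90 and 2.51 differed by 1.61 (SE 0.323, edgeR adjusted p = 0.000256). Glul, glutamine synthetase, went the other way: it stood at 19.9, 17.9 and 25.1 CPM in WT DMSO, 62.6, 40.9 and 58.1 CPM in WT halofuginone, 26.2, 30.9 and 32.4 CPM in Perk-null DMSO and 31.8, 29.9 and 28.5 CPM in Perk-null halofuginone libraries. WT halofuginone libraries were the highest of all. It rose by 1.36 in WT and changed by 0.01 in Perk-null cells (edgeR adjusted p = 0.975), a difference of -1.35 (SE 0.215, edgeR adjusted p = 1.52e-05).

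Over all tested genes, 34.7% rose and 33.4% fell in WT, and 21.2% rose and 21% fell in Perk-null cells. In each direction of the difference 17.5% were called. These shares apply to every list that follows. Of 16 amino acid transporters, 8 rose and 6 fell in WT, and 9 rose and 2 fell in Perk-null cells. The difference was positive in 4 and negative in 2 (median 0.10, 0.03 to 0.24 with each library left out). Negative differences numbered 0 without Perk-null DMSO 3 and 1 without WT DMSO 2, WT halofuginone 3, or Perk-null halofuginone 1 or 2. Falls in Perk-null cells numbered 1 without Perk-null DMSO 3 or Perk-null halofuginone 2, and 4 with a replicate block or when the 4 compared groups were fitted alone. Slc6a9, a glycine transporter, stood at 29.6, 37.3 and 23.6 CPM in WT DMSO, 78.03, 85.9 and 39.9 CPM in WT halofuginone, 37.6, 38.4 and 30.6 CPM in Perk-null DMSO and 166, 196 and 149.6 CPM in Perk-null halofuginone libraries. It rose in both genotypes and more in Perk-null cells, with a difference of 1.09 (SE 0.283, edgeR adjusted p = 0.00312). Slc7a2, a carrier of arginine and lysine, fell by 1.45 in WT (edgeR adjusted p = 6.39e-08) and its difference was 1.07 (SE 0.266, edgeR adjusted p = 0.00216). Of 20 cytosolic aminoacyl-tRNA synthetases, which load amino acids onto tRNA, 16 rose in WT and 14 in Perk-null cells (medians 1.18 and 0.91), and the difference was negative in 5 and positive in 2 (median -0.15). The positive count was 4 without WT halofuginone replicate 1 (median -0.04) and with library size scaling (median -0.05), and the negative count was 3 with no filter on low counts. Eprs, whose product is the target of halofuginone, stood at 509, 483 and 529 CPM in WT DMSO, 1448, 1371 and 1214 CPM in WT halofuginone, 453, 427 and 426 CPM in Perk-null DMSO and 1039, 999 and 1170 CPM in Perk-null halofuginone libraries. Both genotypes rose without overlap of halofuginone and DMSO libraries, and the difference of -0.11 (SE 0.142, edgeR adjusted p = 0.582) did not pass. Rars, the arginyl-tRNA synthetase gene, stood at 479, 433 and 447 CPM in WT DMSO, 1702, 1682 and 1418 CPM in WT halofuginone, 484, 462 and 417 CPM in Perk-null DMSO and 764, 712 and 879 CPM in Perk-null halofuginone libraries. The DMSO libraries overlapped and WT halofuginone libraries were the higher, with a difference of -1.03 (SE 0.161, edgeR adjusted p = 1.1e-05). Iars, the isoleucyl-tRNA synthetase gene, differed by -0.60 (SE 0.192, edgeR adjusted p = 0.0148), and this call was lost without WT DMSO 2, WT halofuginone 3, Perk-null DMSO 3, Perk-null halofuginone 1 or Perk-null halofuginone 2 (range -0.72 to -0.45).

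Among 15 genes of the eIF2 kinases and their partners, the difference was positive in 4 and negative in 1 (median 0.19). Positive differences numbered 2 without WT DMSO replicate 1 or 3 and when the 4 compared groups were fitted alone, and the negative count was 2 without WT DMSO replicate 3 and with a replicate block. The median was 0.30 without WT halofuginone replicate 3. Eif2ak4, the GCN2 gene, stood at 76.2, 76.6 and 88.9 CPM in WT DMSO, 57.5, 56 and 74.1 CPM in WT halofuginone, 82.1, 78.3 and 88.99 CPM in Perk-null DMSO and 71.8, 72.7 and 70.9 CPM in Perk-null halofuginone libraries. It fell slightly in WT (-0.37, edgeR adjusted p = 0.0115), a call lost without WT DMSO 3 or WT halofuginone 2 (range -0.55 to -0.29), and its difference of 0.15 (SE 0.178, edgeR adjusted p = 0.534) did not pass. Impact, which encodes an inhibitor of GCN2 activation, stood at 41, 51.6 and 37.1 CPM in WT DMSO, 57.5, 70.7 and 52.02 CPM in WT halofuginone, 0.956, 0.744 and 0.995 CPM in Perk-null DMSO and 2.37, 1.73 and 3.35 CPM in Perk-null halofuginone libraries. Its Perk-null level was far below the WT level in both conditions (-5.58 in DMSO, edgeR adjusted p = 1.52e-19), and it rose in both genotypes with a difference of 0.99 (SE 0.29, edgeR adjusted p = 0.0084). The WT rise lost its call without WT DMSO 3 or WT halofuginone 2 (range 0.34 to 0.62) and with library size scaling. Eif2b4 encodes a subunit of eIF2B, the exchange factor that phosphorylated eIF2 inhibits. It stood at 53.3, 51.1 and 49.8 CPM in WT DMSO, 18.1, 18.1 and 16.9 CPM in WT halofuginone, 60.3, 57.6 and 61.7 CPM in Perk-null DMSO and 38.96, 41.1 and 36.4 CPM in Perk-null halofuginone libraries. It fell in both genotypes and further in WT, with a difference of 0.91 (SE 0.132, edgeR adjusted p = 4.38e-06).

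**Figure D3:**
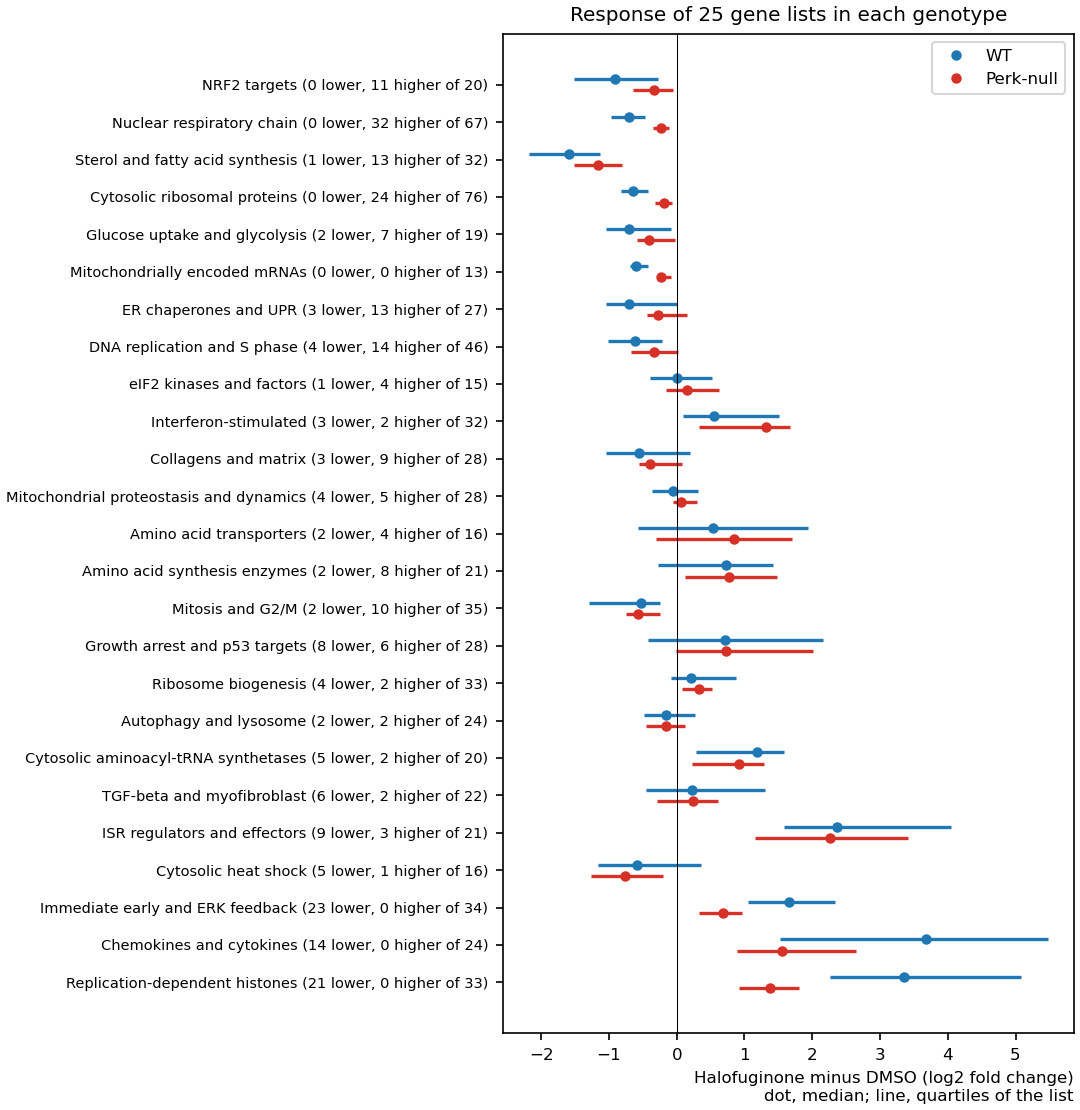
Median log2 response to halofuginone (dot) with quartiles (line) of the tested members of 25 gene lists in WT and Perk-null cells, ordered by the median difference between genotypes; labels give how many members had a called difference in each direction. The medians of histones were 3.35 in WT and 1.38 in Perk-null cells, those of chemokines and cytokines 3.67 and 1.56, and those of ISR regulators 2.36 and 2.26.

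Genes of the immediate early response and of feedback on ERK signalling, which are induced within the first wave of transcription after a stimulus, rose in WT in 28 of 34 tested and in Perk-null cells in 23 (medians 1.65 and 0.69). The difference was called in 23, all of them negative, with a median of -0.87. Dusp1, which encodes a phosphatase of MAP kinases, stood at 16.4, 14.9 and 12.7 CPM in WT DMSO, 106, 92.2 and 101 CPM in WT halofuginone, 20.02, 17.7 and 20.3 CPM in Perk-null DMSO and 32.4, 25.2 and 35.6 CPM in Perk-null halofuginone libraries. WT halofuginone libraries stood apart from all others, and the rises of 2.77 and 0.69 differed by -2.08 (SE 0.261, edgeR adjusted p = 4.14e-07). Nr4a2, an orphan nuclear receptor gene, stood at 9.40, 11.7 and 10.03 CPM in WT DMSO, 34.8, 39.3 and 42.1 CPM in WT halofuginone, 25.6, 19.4 and 27.5 CPM in Perk-null DMSO and 24.2, 21.8 and 26 CPM in Perk-null halofuginone libraries. Only WT rose (1.90; Perk-null -0.01), from a DMSO level below that of Perk-null cells, and the difference was -1.91 (SE 0.2, edgeR adjusted p = 2.8e-08). Without WT halofuginone replicate 3 the list had 20 negative differences and a median of -0.76.

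Chemokines and cytokines rose in WT in 22 of 24 tested and in Perk-null cells in 18 (medians 3.67 and 1.56). The difference was called in 14, all of them negative, with a median of -1.35 (-1.17 with the 4 members that had a group at the floor set to their bound). Beside the negative ones, 1 positive difference was called without WT halofuginone replicate 3, with library size scaling, with no filter on low counts and with the block within genotype. Il11, a cytokine of the IL-6 family that acts on fibroblasts, stood at 2.60, 3.57 and 2.91 CPM in WT DMSO, 156, 158 and 144 CPM in WT halofuginone, 1.67, 1.76 and 2.85 CPM in Perk-null DMSO and 7.31, 4.78 and 7.35 CPM in Perk-null halofuginone libraries. WT halofuginone libraries were far above the other 3 groups, the DMSO groups overlapped, and the rises of 5.65 and 1.63 differed by -4.03 (SE 0.309, edgeR adjusted p = 8.18e-11). Ccl20, a chemokine gene, had 0 counts in all WT DMSO libraries and stood at 5.43 to 13.6 CPM in WT halofuginone, 0.0538 to 0.248 CPM in Perk-null DMSO and 2.03 to 3.04 CPM in Perk-null halofuginone libraries. With the floor of 3 counts per WT DMSO library, its WT rise was at least 6.56 on the log2 scale, against 4.10 in Perk-null cells.

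Growth arrest genes and p53 targets rose in 17 of 28 in WT and 18 in Perk-null cells (medians 0.71 and 0.73). Of all tested genes 34.7% and 21.2% rose, and 17.5% were called in each direction of the difference. In this list the difference was negative in 8 and positive in 6 (median 0.05, up to 0.24 without WT halofuginone 2, but -0.04 without WT DMSO 2 and -0.02 without WT halofuginone 3 or Perk-null halofuginone 2). Gadd45g, a growth arrest gene, stood at 20.3, 16.05 and 20.7 CPM in WT DMSO, 379, 429.6 and 822 CPM in WT halofuginone, 15, 15.6 and 21.6 CPM in Perk-null DMSO and 72.2, 60.2 and 149 CPM in Perk-null halofuginone libraries. Halofuginone replicate 3 was the highest in each genotype, WT halofuginone libraries were all above Perk-null ones, and the difference was -2.41 (SE 0.475, edgeR adjusted p = 0.000218). Plk3, a stress kinase gene, stood at 24.5, 23.2 and 26.6 CPM in WT DMSO, 321, 304 and 374 CPM in WT halofuginone, 20, 24.2 and 24.3 CPM in Perk-null DMSO and 83.7, 91.8 and 91.98 CPM in Perk-null halofuginone libraries. Its DMSO groups overlapped and its halofuginone groups did not, with a difference of -1.78 (SE 0.256, edgeR adjusted p = 3.69e-06). Trp53, named after its values were seen, moved in opposite directions: it stood at 284, 252 and 336 CPM in WT DMSO, 98.4, 114 and 107 CPM in WT halofuginone, 40.8, 36.2 and 39.3 CPM in Perk-null DMSO and 48.5, 50.1 and 43.96 CPM in Perk-null halofuginone libraries. It fell by 1.45 in WT, rose by 0.29 in Perk-null cells, and differed by 1.75 (SE 0.127, edgeR adjusted p = 2.99e-11), while remaining higher in every WT library. The part of the lower Trp53 level of the Perk-null line in this list's values was not tested.

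Replication-dependent histone genes, whose mRNAs end in a stem-loop in place of a poly(A) tail, rose in 31 of 33 in WT and 20 in Perk-null cells (medians 3.35 and 1.38). The difference was called in 21, all of them negative (median -2.35). Hist1h1d, a linker histone gene, stood at 0.371, 0.478 and 0.186 CPM in WT DMSO, 20.3, 16.5 and 63.2 CPM in WT halofuginone, 1.23, 0.909 and 0.753 CPM in Perk-null DMSO and 5.88, 3.46 and 4.31 CPM in Perk-null halofuginone libraries. Every WT halofuginone library was above every other library, replicate 3 by the most, and the difference was -4.33 (SE 0.624, edgeR adjusted p = 3.87e-06). Hist1h2bn, a core histone gene, stood at 0.200, 0.0843 and 0.310 CPM in WT DMSO, 11.6, 10.7 and 54.8 CPM in WT halofuginone, 0.273, 0.524 and 0.323 CPM in Perk-null DMSO and 1.75, 1.84 and 2.19 CPM in Perk-null halofuginone libraries. The DMSO groups overlapped, and the difference was -4.65 (SE 0.94, edgeR adjusted p = 0.000279). Without WT halofuginone replicate 3 the list had 18 negative differences and a median of -1.75. Histone genes are near-identical copies, so how their reads were divided between copies is uncertain, and the labels name both ribosomal depletion and mRNA selection.

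TGF-beta signalling and myofibroblast genes are of interest because halofuginone is known to reduce TGF-beta signalling and collagen synthesis in fibroblasts. Of 22 tested, 10 rose and 6 fell in WT, and 10 rose and 3 fell in Perk-null cells. The shares of all tested genes were 34.7% and 33.4% in WT, and 21.2% and 21% in Perk-null cells. The difference was negative in 6 and positive in 2, where 17.5% of all tested genes were called in each direction. Its median was -0.19, but 0.06 with 4 negative differences without WT halofuginone replicate 3, and -0.44 without WT DMSO replicate 3. The positive count was 4 with library size scaling and with a replicate block, and rises in Perk-null cells numbered 6 without Perk-null halofuginone replicate 3. Tgfb2, a TGF-beta ligand gene, stood at 4.97, 4.44 and 3.81 CPM in WT DMSO, 32.05, 32.6 and 48.9 CPM in WT halofuginone, 5.57, 4.55 and 5.27 CPM in Perk-null DMSO and 8.42, 7.36 and 12.7 CPM in Perk-null halofuginone libraries. WT halofuginone libraries were the highest, and the rises of 3.10 and 0.89 differed by -2.21 (SE 0.349, edgeR adjusted p = 1.33e-05). The Perk-null rises of Tgfb2 (0.63) and Skil (0.49) lost their call without Perk-null halofuginone replicate 3. Skil, which encodes the SnoN repressor of SMAD proteins, stood at 29.5, 29.4 and 32.3 CPM in WT DMSO, 135, 117 and 218 CPM in WT halofuginone, 36.7, 35.3 and 34.5 CPM in Perk-null DMSO and 53.3, 46.04 and 64.8 CPM in Perk-null halofuginone libraries. It rose more in WT, with a difference of -1.74 (SE 0.281, edgeR adjusted p = 1.77e-05). Of 28 collagen and matrix genes, 15 fell in WT and 14 in Perk-null cells (33.4% and 21% of all tested genes fell), and the difference was positive in 9 and negative in 3 (median 0.17). The negative count was 1 without Perk-null DMSO replicate 3 (median 0.26), 6 with the block within genotype and 5 with the shared block. Col3a1, a fibrillar collagen gene, stood at 1808, 1879 and 1410 CPM in WT DMSO, 441, 467 and 263 CPM in WT halofuginone, 608, 594 and 536 CPM in Perk-null DMSO and 423, 443 and 313 CPM in Perk-null halofuginone libraries. WT libraries fell from a level above all Perk-null libraries to one overlapping the Perk-null halofuginone libraries, and the difference was 1.56 (SE 0.253, edgeR adjusted p = 1.87e-05). Its Perk-null fall lost its call without Perk-null halofuginone replicate 3 (-0.41). Thbs1, the thrombospondin 1 gene, rose by 1.13 in WT and changed by -0.26 in Perk-null cells, which gave a difference of -1.40 (SE 0.434, edgeR adjusted p = 0.0124) that was lost without WT DMSO 2, WT halofuginone 3 or Perk-null DMSO 3 (range -1.59 to -1.10).

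Many genes of metabolism and growth fell in both genotypes and further in WT, which gives a positive difference. All 32 sterol and fatty acid synthesis genes tested fell in WT and 29 in Perk-null cells (medians -1.59 and -1.17), and the difference was positive in 13 and negative in 1 (median 0.47); with each library left out the negative count ran from 0 to 2. Mvd, of the mevalonate pathway, stood at 143, 164 and 166 CPM in WT DMSO, 11.7, 19.3 and 15.4 CPM in WT halofuginone, 108, 127 and 127 CPM in Perk-null DMSO and 28.6, 31.1 and 22.5 CPM in Perk-null halofuginone libraries. Halofuginone libraries lay below DMSO libraries in both genotypes and WT reached the lower level, with a difference of 1.21 (SE 0.291, edgeR adjusted p = 0.00164). Acss2, acetyl-CoA synthetase, differed by 1.26 (SE 0.423, edgeR adjusted p = 0.0207), a call lost without WT DMSO 2, WT halofuginone 1 or Perk-null DMSO 1 (range 1.05 to 1.73). Of 20 NRF2 targets, which serve antioxidant defence, 15 fell in WT and 12 in Perk-null cells (medians -0.91 and -0.34), and the difference was called in 11, all of them positive (median 0.60), beside 2 negative ones with the block within genotype and 1 with the shared block. G6pdx, the first enzyme of the pentose phosphate pathway, stood at 132, 118 and 123 CPM in WT DMSO, 26.1, 22.6 and 20.3 CPM in WT halofuginone, 129, 128 and 129 CPM in Perk-null DMSO and 60.7, 68.5 and 49.5 CPM in Perk-null halofuginone libraries. The DMSO groups overlapped, WT halofuginone libraries were the lowest, and the difference was 1.32 (SE 0.213, edgeR adjusted p = 1.72e-05). Gstm1, a glutathione transferase gene, differed by 1.23 (SE 0.27, edgeR adjusted p = 0.000689).

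Of 19 genes of glucose uptake and glycolysis, 14 fell in WT and 12 in Perk-null cells (medians -0.70 and -0.41), and the difference was positive in 7 and negative in 2 (median 0.42). Positive differences numbered 11 without Perk-null halofuginone replicate 3, and also 11 with scaling by library size. Negative differences numbered 1 with that scaling, with no filter on low counts and in 8 of the 12 fits that left out 1 library, those without WT DMSO 2 or 3, WT halofuginone 1, 2 or 3, Perk-null DMSO 3, or Perk-null halofuginone 1 or 2. Pfkm, a subunit of phosphofructokinase, stood at 74.5, 79.6 and 72.4 CPM in WT DMSO, 7.83, 6.01 and 5.03 CPM in WT halofuginone, 95.5, 92.5 and 98.5 CPM in Perk-null DMSO and 34.2, 37.1 and 28.1 CPM in Perk-null halofuginone libraries. WT fell below every Perk-null library, and the falls of -3.59 and -1.53 differed by 2.06 (SE 0.185, edgeR adjusted p = 2.05e-09). Hk1, a hexokinase gene, stood at 131, 108 and 148 CPM in WT DMSO, 71.2, 56.03 and 65.9 CPM in WT halofuginone, 219, 187 and 222 CPM in Perk-null DMSO and 202, 203 and 218 CPM in Perk-null halofuginone libraries. It fell in WT and changed by -0.01 in Perk-null cells (edgeR adjusted p = 0.945), a difference of 0.99 (SE 0.154, edgeR adjusted p = 1.13e-05). Of 27 ER chaperones and genes of the unfolded protein response, 16 fell in WT and 11 in Perk-null cells (medians -0.71 and -0.28), with 13 positive and 3 negative differences (median 0.38). The negative count was 1 without Perk-null DMSO 3 or Perk-null halofuginone 2. Sdf2l1, an ER luminal chaperone partner, stood at 16.5, 19.8 and 14.2 CPM in WT DMSO, 3.22, 2.73 and 3.52 CPM in WT halofuginone, 14.7, 16.4 and 23.8 CPM in Perk-null DMSO and 10.5, 10.03 and 15.7 CPM in Perk-null halofuginone libraries. WT halofuginone libraries were the lowest, with a difference of 1.82 (SE 0.409, edgeR adjusted p = 0.000845). Ern1, the IRE1 sensor gene, rose in both genotypes (1.98 and 1.09) and differed by -0.89 (SE 0.282, edgeR adjusted p = 0.0141), a call lost without WT halofuginone 3 (range -1.02 to -0.71).

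DNA replication and S phase genes fell in 33 of 46 in WT and 23 in Perk-null cells (medians -0.61 and -0.34), and the difference was positive in 14 and negative in 4 (median 0.24, 0.39 without WT halofuginone replicate 1). Dna2, a helicase and nuclease of replication, stood at 28, 20.2 and 31.8 CPM in WT DMSO, 1.55, 0.880 and 0.740 CPM in WT halofuginone, 29.7, 28.8 and 32.1 CPM in Perk-null DMSO and 8.50, 8.24 and 5.84 CPM in Perk-null halofuginone libraries. The DMSO groups overlapped and WT halofuginone libraries were far lower than Perk-null ones, with a difference of 2.65 (SE 0.394, edgeR adjusted p = 5.76e-06). E2f7, a repressor of S phase genes, rose in WT (1.10) and changed by -0.21 in Perk-null cells, which gave a difference of -1.32 (SE 0.273, edgeR adjusted p = 0.000367). Mitosis and G2/M genes fell in 24 of 35 in WT and 23 in Perk-null cells (medians -0.53 and -0.57), with 10 positive and 2 negative differences (median 0.08, but -0.02 without WT DMSO replicate 1 and 0.23 without WT halofuginone replicate 3). Negative differences numbered 1 without WT halofuginone 3 or Perk-null halofuginone 2. Pttg1, the securin gene, stood at 18.9, 22.7 and 13.2 CPM in WT DMSO, 1.86, 2.87 and 1.26 CPM in WT halofuginone, 33.3, 33.9 and 25.1 CPM in Perk-null DMSO and 10.95, 12.4 and 8.56 CPM in Perk-null halofuginone libraries. WT reached the lower level, and the difference was 1.66 (SE 0.408, edgeR adjusted p = 0.00204). Bub1b, a spindle checkpoint gene, stood at 318, 266 and 229 CPM in WT DMSO, 62.5, 59.6 and 64.4 CPM in WT halofuginone, 412, 384 and 381 CPM in Perk-null DMSO and 219, 250.4 and 185 CPM in Perk-null halofuginone libraries. It fell to 59.6 to 64.4 CPM in WT and remained at 185 CPM or above in Perk-null cells, which gave a difference of 1.28 (SE 0.177, edgeR adjusted p = 2.21e-06). The cell cycle homology motif TTTGAA, read on both strands, was in 23 of 31 mitosis promoters found (74.2%), against 12.5% of promoters of tested genes. The E2F-type motifs TTTGGCGC and TTTCCCGC, which can overlap each other, were each in 7 of 36 replication promoters (19.4%), against 0.944% and 1.98% of promoters of tested genes.

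Of 67 nuclear genes of the respiratory chain, 61 fell in WT and 20 in Perk-null cells (medians -0.70 and -0.23), and the difference was called in 32, all of them positive (median 0.47). Ndufa8, a complex I subunit gene, stood at 118, 102 and 115 CPM in WT DMSO, 38.9, 38.4 and 29.6 CPM in WT halofuginone, 111, 111 and 115 CPM in Perk-null DMSO and 79.9, 92.9 and 69.4 CPM in Perk-null halofuginone libraries. DMSO groups overlapped, WT halofuginone libraries were the lowest, and the difference was 1.17 (SE 0.148, edgeR adjusted p = 4.74e-07). Ndufb9, also of complex I, differed by 0.97 (SE 0.171, edgeR adjusted p = 5.62e-05). The positive count was 48 with replicate numbers within a genotype as a block and 22 without WT halofuginone replicate 3. Falls in Perk-null cells numbered 12 without Perk-null halofuginone 3, 13 without Perk-null DMSO 2, and 38 and 34 with the block within genotype and shared. The 13 mRNAs encoded by mitochondrial DNA had differences from 0.17 to 0.59, with 0 called by edgeR (0 at an unadjusted p below 0.05, and 0 by DESeq2); 7 were called with no filter on low counts, and 1 without WT halofuginone 1, with a replicate block or when the 4 compared groups were fitted alone. They fell in 8 of 13 in WT by edgeR and in 0 of 13 in Perk-null cells (1 at an unadjusted p below 0.05, and 0 by DESeq2). The WT count was 2 without WT DMSO 2, 3 without WT halofuginone 3, 4 without WT halofuginone 2, 12 without WT halofuginone 1, and 13 with no filter on low counts. The Perk-null count was 3 with no filter, and 1 with a replicate block or with the 4 compared groups fitted alone. Their summed share of counts was 3.59% to 4.74% in WT DMSO, 1.85% to 2.97% in WT halofuginone, 3.44% to 4.32% in Perk-null DMSO and 3.25% to 3.60% in Perk-null halofuginone libraries. Cytosolic ribosomal protein genes fell in 66 of 76 in WT and 15 in Perk-null cells (medians -0.64 and -0.19), and the difference was called in 24, all of them positive (median 0.45). Rpl37a stood at 24.8, 22.7 and 19.2 CPM in WT DMSO, 7.21, 6.51 and 7.03 CPM in WT halofuginone, 15.8, 16.1 and 14.6 CPM in Perk-null DMSO and 8.74, 10.5 and 7.93 CPM in Perk-null halofuginone libraries, and its difference was 0.91 (SE 0.186, edgeR adjusted p = 0.000324). Its WT halofuginone libraries were below all others. The ribosomal protein count depended on single libraries: it was 7 without WT DMSO 1 or without Perk-null halofuginone 2, 8 without WT halofuginone 3, 10 without Perk-null DMSO 1, 12 without WT DMSO 2, and 38 without WT DMSO 3 or without WT halofuginone 1. It was 58 with the replicate block within genotype, 50 with the shared block and 41 with no filter on low counts. Falls in Perk-null cells numbered 6 without Perk-null DMSO 2 or Perk-null halofuginone 3, and 33 and 29 with those blocks.

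Both of these lists hold short transcripts, with median lengths of 595.5 bases for the respiratory chain and 634.5 bases for ribosomal proteins. Over the 14071 genes matched to a transcript (87.6%), the 2820 genes with the shortest transcripts had a median response of -0.24 in WT and -0.06 in Perk-null cells, and the 2811 with the longest 0.25 and 0. The median difference was 0.15 in the shortest and -0.23 in the longest. Responses also varied with GC percent, the share of G and C bases in the transcript. The 2815 genes lowest in GC had median responses of 0.33 in WT and 0.16 in Perk-null cells. In the 2814 highest in GC they were -0.42 and -0.23. The median difference was -0.15 in the lowest and 0.19 in the highest. The part of transcript length or GC percent in the results on these lists was not tested.

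Of 33 ribosome biogenesis genes, 16 rose in each genotype (34.7% of all tested genes rose in WT and 21.2% in Perk-null cells). The difference was negative in 4 and positive in 2, where 17.5% of all tested genes were called in each direction. Its median was 0.01, from -0.19 without WT DMSO replicate 3 to 0.15 without WT halofuginone replicate 1. The negative count was 8 without WT DMSO replicate 3, 2 without WT DMSO 2, WT halofuginone 1 or Perk-null DMSO 3, and 9 and 7 with the block within genotype and shared. Positive differences numbered 5 without WT halofuginone 1 and with no filter on low counts, 7 and 5 with those blocks, and 1 with the 4 compared groups fitted alone or without WT DMSO 1 or 3, WT halofuginone 3, Perk-null DMSO 1 or 2, or Perk-null halofuginone 2. Wdr43, which acts in early ribosome assembly, stood at 264, 210.2 and 277 CPM in WT DMSO, 952, 896 and 758 CPM in WT halofuginone, 452, 437 and 401 CPM in Perk-null DMSO and 885, 802 and 986 CPM in Perk-null halofuginone libraries. Its difference was -0.75 (SE 0.179, edgeR adjusted p = 0.00157), from a DMSO level higher in Perk-null cells to overlapping halofuginone levels. Gnl3, the nucleostemin gene, differed by -0.66 (SE 0.163, edgeR adjusted p = 0.00204). Of 28 mitochondrial proteostasis and dynamics genes, 5 had a positive and 4 a negative difference (median 0.15), beside 17.5% of all tested genes in each direction. The positive count was 9 without WT halofuginone 1, 8 without Perk-null halofuginone 3, 3 without Perk-null DMSO 1 or Perk-null halofuginone 2, 10 with library size scaling and 9 with the block within genotype. Negative differences numbered 2 with that scaling and without WT DMSO 1 or 2, WT halofuginone 3, Perk-null DMSO 3, or Perk-null halofuginone 1 or 2. Hspa9, the mitochondrial HSP70, stood at 999, 909 and 982 CPM in WT DMSO, 3209, 2925 and 2870 CPM in WT halofuginone, 1257, 1328 and 1200 CPM in Perk-null DMSO and 2164, 2206 and 2584 CPM in Perk-null halofuginone libraries. It rose in both genotypes and more in WT, with a difference of -0.76 (SE 0.135, edgeR adjusted p = 6.06e-05). Phb, the prohibitin gene, stood at 31.3, 33.98 and 25.7 CPM in WT DMSO, 8.02, 7.62 and 4.22 CPM in WT halofuginone, 38.8, 41.9 and 36.5 CPM in Perk-null DMSO and 24.5, 32.8 and 17.6 CPM in Perk-null halofuginone libraries. It fell further in WT, with a difference of 1.55 (SE 0.333, edgeR adjusted p = 0.000551), and its Perk-null change of -0.65 lost its call without Perk-null DMSO 2 or Perk-null halofuginone 1 or 3 (range -0.89 to -0.44). The negative count of the list was 1 with no filter on low counts. Of 24 autophagy and lysosome genes, 2 had a positive and 2 a negative difference, again beside 17.5% of all tested genes in each direction. The median of this list was -0.07, but 0.04 with library size scaling, and -0.10 to 0.01 with each library left out. The negative count ran from 0 to 2 with each library left out. Tfeb, a regulator of lysosome genes, differed by 0.89 (SE 0.266, edgeR adjusted p = 0.00969), and Optn, an autophagy receptor gene, by -1.01 (SE 0.372, edgeR adjusted p = 0.0346), a call lost in 7 of the 12 fits that left out 1 library (range -1.23 to -0.61). Those fits were without WT DMSO 1 or 2, WT halofuginone 3, Perk-null DMSO 1 or 3, or Perk-null halofuginone 1 or 2.

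Interferon-stimulated genes rose in 11 of 32 in WT and 14 in Perk-null cells (medians 0.56 and 1.32), where 34.7% and 21.2% of all tested genes rose. The difference was negative in 3 and positive in 2, where 17.5% of all tested genes were called in each direction. The list had a median of 0.18 (0.33 with 3 members set to their floor bound). The median ran from 0.03 without WT halofuginone replicate 3 to 0.63 without WT halofuginone replicate 2, where 5 were positive. With the block within genotype 9 were positive and 4 negative, 17 rose in WT and 22 in Perk-null cells, and with no filter on low counts 11 were positive and 5 negative. Cxcl10, a chemokine induced by interferon, stood at 0.857, 0.450 and 0.619 CPM in WT DMSO, 32.1, 50.7 and 25.5 CPM in WT halofuginone, 10.6, 13.2 and 10.1 CPM in Perk-null DMSO and 37.8, 37.8 and 31.4 CPM in Perk-null halofuginone libraries. Perk-null DMSO libraries were above WT DMSO libraries and the halofuginone groups overlapped, so that the rises of 5.81 and 1.66 differed by -4.15 (SE 0.494, edgeR adjusted p = 1.95e-07). Ccl5, another chemokine of this kind, stood at 4.03, 2.02 and 1.95 CPM in WT DMSO, 21.4, 16.6 and 13.6 CPM in WT halofuginone, 18.2, 19.6 and 20.2 CPM in Perk-null DMSO and 39.8, 57.1 and 41.99 CPM in Perk-null halofuginone libraries. It was higher in Perk-null cells in both conditions, with a difference of -1.43 (SE 0.291, edgeR adjusted p = 0.000311). Most levels in this list went the other way. In DMSO 16 of the 32 were lower in Perk-null cells and 2 higher (median -1.165), beside 24.9% and 24.6% of all tested genes. Under halofuginone 19 were lower and 1 higher (median -0.991), beside 34.5% and 31.3%. Of 16 cytosolic heat shock genes, 10 fell in WT and 12 in Perk-null cells (medians -0.59 and -0.77), where 33.4% and 21% of all tested genes fell. The difference was negative in 5 and positive in 1 (median -0.35). The negative count was 3 without Perk-null halofuginone replicate 1 or 2, 3 with library size scaling and 2 with no filter on low counts, and the positive count ran from 0 to 2 with each library left out. Hspb1, a small heat shock protein gene, stood at 3.40, 2.53 and 4.09 CPM in WT DMSO, 16.3, 17.6 and 25.3 CPM in WT halofuginone, 0.901, 1.21 and 1.45 CPM in Perk-null DMSO and 1.56, 1.37 and 1.56 CPM in Perk-null halofuginone libraries. WT rose from a DMSO level already above that of Perk-null cells, and the difference was -2.23 (SE 0.32, edgeR adjusted p = 3.49e-06). Hspa4l, an HSP110 family gene, rose by 0.48 in WT and fell by 0.31 in Perk-null cells, which gave a difference of -0.79 (SE 0.176, edgeR adjusted p = 0.000724). The Perk-null fall lost its call without Perk-null DMSO 1 or 2 or Perk-null halofuginone 2 or 3 (range -0.39 to -0.22).

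Genes outside these lists were taken by size within each class. Among genes with only the WT response called, Pik3ip1, which encodes an inhibitor of PI3 kinase, stood at 5.34, 5.93 and 4.55 CPM in WT DMSO, 0.619, 0.967 and 0.833 CPM in WT halofuginone, 4.89, 4.52 and 5.86 CPM in Perk-null DMSO and 4.94, 6.45 and 3.89 CPM in Perk-null halofuginone libraries. The WT halofuginone libraries were below 1 CPM and the other 3 groups overlapped, with a difference of 2.70 (SE 0.276, edgeR adjusted p = 1.7e-08). Zfp354c, a zinc finger gene, fell by 2.84 in WT and differed by 2.50 (SE 0.292, edgeR adjusted p = 1.54e-07); with the block within genotype its Perk-null change of -0.34 was called too. Arc, an immediate early gene known from neurons, stood at 1.29, 1.80 and 2.41 CPM in WT DMSO, 27.2, 31.5 and 80.8 CPM in WT halofuginone, 4.15, 3.995 and 4.89 CPM in Perk-null DMSO and 7.53, 4.94 and 10.1 CPM in Perk-null halofuginone libraries. WT halofuginone libraries were the highest, replicate 3 by the most, and the difference was -3.88 (SE 0.494, edgeR adjusted p = 5.51e-07). Its Perk-null change of 0.79 (edgeR adjusted p = 0.0584) was called as a rise with a replicate block, by DESeq2, with no filter on low counts, and without WT halofuginone 1 or 3 or Perk-null halofuginone 2 (range 0.53 to 1.01). Aldh1a3, an enzyme that makes retinoic acid, stood at 3.37, 0.956 and 2.23 CPM in WT DMSO, 50.9, 47.5 and 33.4 CPM in WT halofuginone, 0.164, 0.248 and 0.188 CPM in Perk-null DMSO and 0.486, 0.247 and 0.357 CPM in Perk-null halofuginone libraries. It was higher in WT in every library of both conditions, and the difference was -3.48 (SE 0.686, edgeR adjusted p = 0.000212). Among genes called in both genotypes and larger in WT, Chst12, a chondroitin sulfotransferase gene, stood at 21.2, 19.9 and 24.4 CPM in WT DMSO, 1.18, 1.41 and 1.11 CPM in WT halofuginone, 13.03, 11.2 and 14.5 CPM in Perk-null DMSO and 5.04, 6.13 and 4.66 CPM in Perk-null halofuginone libraries. Its falls of -4.14 and -1.29 differed by 2.85 (SE 0.28, edgeR adjusted p = 8.72e-09). Tmem180, a membrane protein gene, fell by 3.58 in WT and by 0.67 in Perk-null cells, which gave a difference of 2.92 (SE 0.354, edgeR adjusted p = 2.49e-07); its Perk-null fall lost its call without Perk-null halofuginone 1 (-0.52).

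The 4 genes taken from the class with only the Perk-null response called were Acot2, Stard5, Ndrg4 and Plekhg4. Acot2, a mitochondrial acyl-CoA thioesterase gene, stood at 13.4, 16.6 and 12.9 CPM in WT DMSO, 20.7, 22.5 and 10.9 CPM in WT halofuginone, 1.67, 1.93 and 1.29 CPM in Perk-null DMSO and 21.1, 21.8 and 20.3 CPM in Perk-null halofuginone libraries. The Perk-null DMSO libraries were the low group, and after halofuginone the Perk-null libraries lay within the WT halofuginone range. The rise of 3.69 in Perk-null cells, beside 0.33 in WT (edgeR adjusted p = 0.2), gave a difference of 3.36 (SE 0.356, edgeR adjusted p = 3.05e-08); the WT change was called without WT halofuginone 3 (0.55). Stard5, which encodes a sterol-binding protein, stood at 2.54, 3.63 and 2.23 CPM in WT DMSO, 1.98, 4.87 and 0.987 CPM in WT halofuginone, 2.65, 3.33 and 3.98 CPM in Perk-null DMSO and 14.1, 19.9 and 15.8 CPM in Perk-null halofuginone libraries. Its DMSO groups overlapped and only the Perk-null halofuginone libraries rose, with a difference of 2.41 (SE 0.456, edgeR adjusted p = 0.000129); a WT fall of -0.92 was called without WT halofuginone 2. Ndrg4 stood at 10.4, 11.2 and 8.48 CPM in WT DMSO, 8.51, 11.3 and 11.9 CPM in WT halofuginone, 3.55, 2.62 and 3.58 CPM in Perk-null DMSO and 1.29, 0.852 and 1.32 CPM in Perk-null halofuginone libraries. It fell only in Perk-null cells, with a difference of -1.56 (SE 0.276, edgeR adjusted p = 5.92e-05). Plekhg4 fell by 1.51 in Perk-null cells from overlapping DMSO levels and differed by -1.36 (SE 0.282, edgeR adjusted p = 0.000359).

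Among genes called in both genotypes and larger in Perk-null cells, Cdsn, the corneodesmosin gene, stood at 1.17, 1.24 and 2.29 CPM in WT DMSO, 9.91, 10.4 and 5.12 CPM in WT halofuginone, 4.43, 3.86 and 5.92 CPM in Perk-null DMSO and 84.4, 96.1 and 104 CPM in Perk-null halofuginone libraries. Both genotypes rose, and Perk-null halofuginone libraries were far above all others, with a difference of 1.88 (SE 0.504, edgeR adjusted p = 0.00415). Hhipl1 stood at 10.6, 13.5 and 12.1 CPM in WT DMSO, 50.3, 56.5 and 31.6 CPM in WT halofuginone, 1.09, 0.992 and 0.511 CPM in Perk-null DMSO and 9.71, 8.35 and 9.65 CPM in Perk-null halofuginone libraries. Its Perk-null levels were below the WT levels in each condition, and the difference was 1.48 (SE 0.306, edgeR adjusted p = 0.000348). Dennd3 fell by 1.21 in WT and by 2.98 in Perk-null cells, which gave a difference of -1.77 (SE 0.38, edgeR adjusted p = 0.000542). Pfkfb4, which sets the level of a glycolysis activator, stood at 34.3, 30.9 and 25.6 CPM in WT DMSO, 23.04, 22.5 and 24.4 CPM in WT halofuginone, 8.85, 8.82 and 8.63 CPM in Perk-null DMSO and 2.19, 2.17 and 2.002 CPM in Perk-null halofuginone libraries. All Perk-null libraries were below all WT libraries, and its changes of -0.38 in WT and -2.05 in Perk-null cells differed by -1.67 (SE 0.251, edgeR adjusted p = 7e-06). The WT change lost its call with size factors of the DESeq2 kind, by DESeq2, and without WT DMSO 1 or 2 or WT halofuginone 1 or 2 (range -0.49 to -0.28), which leaves only the Perk-null response called.

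In 221 genes the genotypes moved in opposite directions. Cyp26b1, whose product degrades retinoic acid, stood at 11.9, 11.2 and 10.03 CPM in WT DMSO, 4.33, 5.10 and 3.76 CPM in WT halofuginone, 2.32, 2.51 and 4.41 CPM in Perk-null DMSO and 11.5, 13.1 and 14.2 CPM in Perk-null halofuginone libraries. Halofuginone exchanged the order of the genotypes: WT was the higher in DMSO and Perk-null the higher under halofuginone, without overlap. Its changes of -1.32 in WT and 2.07 in Perk-null cells differed by 3.39 (SE 0.29, edgeR adjusted p = 8.37e-10). Peg10, an imprinted gene derived from a retrotransposon, stood at 31.6, 29.8 and 34.9 CPM in WT DMSO, 131, 127 and 162 CPM in WT halofuginone, 144, 114 and 161 CPM in Perk-null DMSO and 78.3, 83.7 and 70.04 CPM in Perk-null halofuginone libraries. The order was exchanged the other way, with changes of 2.13 and -0.85 and a difference of -2.98 (SE 0.178, edgeR adjusted p = 2.63e-13). Mamdc2 stood at 12.1, 15.2 and 13.99 CPM in WT DMSO, 4.37, 5.78 and 4.75 CPM in WT halofuginone, 0.847, 0.799 and 0.645 CPM in Perk-null DMSO and 1.97, 1.98 and 2.14 CPM in Perk-null halofuginone libraries. It fell in WT and rose in Perk-null cells but remained higher in WT, with a difference of 2.88 (SE 0.303, edgeR adjusted p = 2.81e-08). Pkp3, the plakophilin 3 gene of desmosomes, stood at 2.94, 4.64 and 3.56 CPM in WT DMSO, 6.63, 11.1 and 14.4 CPM in WT halofuginone, 7.21, 7.14 and 8.47 CPM in Perk-null DMSO and 4.83, 4.23 and 3.57 CPM in Perk-null halofuginone libraries. It rose in WT and fell in Perk-null cells, with a difference of -2.38 (SE 0.343, edgeR adjusted p = 3.81e-06). Markers of epithelial cells, among them Krt8, summed to 0.171 to 0.506 CPM in WT DMSO, 17.2 to 23.9 in WT halofuginone, 1.39 to 1.96 in Perk-null DMSO and 3.30 to 4.88 in Perk-null halofuginone libraries, with Krt5 at the floor throughout. In bulk RNA, more cells of a type and more RNA per cell cannot be told apart, and the part of such cells in the Pkp3 and Cdsn values was not tested.

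**Figure D4:**
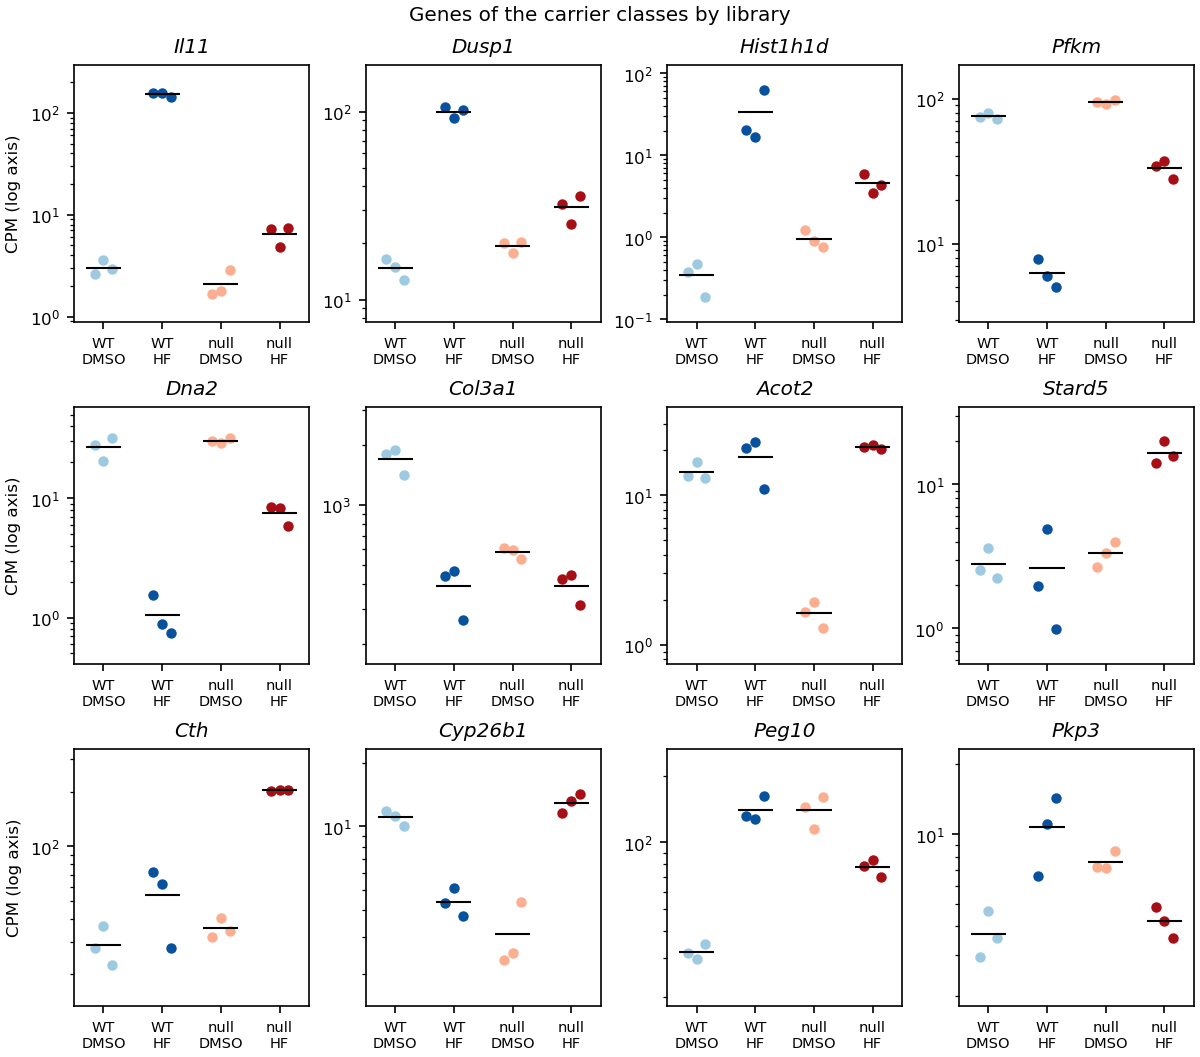
Levels in CPM (log axis) of 12 genes that carry the classes, in each of the 12 libraries; HF is halofuginone, null is Perk-null, and bars are means of 3 libraries. Il11 stood out in WT halofuginone libraries (144 to 158 CPM), Acot2 was low only in Perk-null DMSO libraries (1.29 to 1.93 CPM), and Cyp26b1 and Peg10 exchanged the order of the genotypes.

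The genotype difference in the response to halofuginone was also measured in 12 other libraries, with thapsigargin in place of DMSO: halofuginone with thapsigargin over thapsigargin alone. Thapsigargin empties the ER of calcium and so activates PERK where it is present. That difference was called for 5259 genes (32.7%), 2548 higher (15.9%) and 2711 lower (16.9%). Of the 5615 genes called over DMSO, 67.3% had the same sign over thapsigargin, against 59.8% of all tested genes. The share was 94.3% of the genes with only the Perk-null response called, 97.9% of those larger in Perk-null cells and 96.8% of those with opposite responses. It was 80.7% where only WT was called and 43.2% where both were called with the larger change in WT. Of the 2286 genes in this last class, 262 were called over thapsigargin with the same sign and 522 with the opposite sign. Among all 16065 tested genes these counts were 3510 and 1749. 

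ISR regulators showed the largest positive list median over thapsigargin, 1.78 with 20 of 21 members positive and called, against -0.24 over DMSO. Perk-null cells carried this difference: over thapsigargin 19 members rose and 1 fell in them (median 1.80). In WT 4 rose and 5 fell over thapsigargin (median -0.04). Atf3 went from -2.45 to 3.16 (edgeR adjusted p = 1e-09), Ddit3 from -0.91 to 2.94 (edgeR adjusted p = 5.21e-09) and Ppp1r15a from -0.85 to 3.01 (edgeR adjusted p = 6.51e-09). Asns had a difference of 1.34 (edgeR adjusted p = 2.87e-08) and Eprs of 1.01 (edgeR adjusted p = 1.69e-06) over thapsigargin. Histone genes had a median of -0.15 with 1 of 33 called, beside -2.35 over DMSO, and Hist1h1d a difference of 0.07 (edgeR adjusted p = 0.948). Histone genes rose over thapsigargin in both genotypes, 30 in WT and 26 in Perk-null cells (medians 2.07 and 1.96). Dusp1 kept a negative difference of -3.07 (edgeR adjusted p = 5.53e-10), as did Il11 with -2.32 (edgeR adjusted p = 1.04e-06). Their lists kept the negative sign less. Over thapsigargin, 14 of 34 immediate early genes were negative and 4 positive (median -0.49). Of 24 chemokines and cytokines, 5 were negative and 7 positive (median 0.42), so Il11 does not stand for its list. Over all tested genes 16.9% were negative and 15.9% positive. Cyp26b1, Peg10, Acot2 and Stard5 kept their sign at 2.57, -2.17, 3.32 and 4.05, each called by edgeR. No test compared the difference over DMSO with that over thapsigargin.

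**Figure D5:**
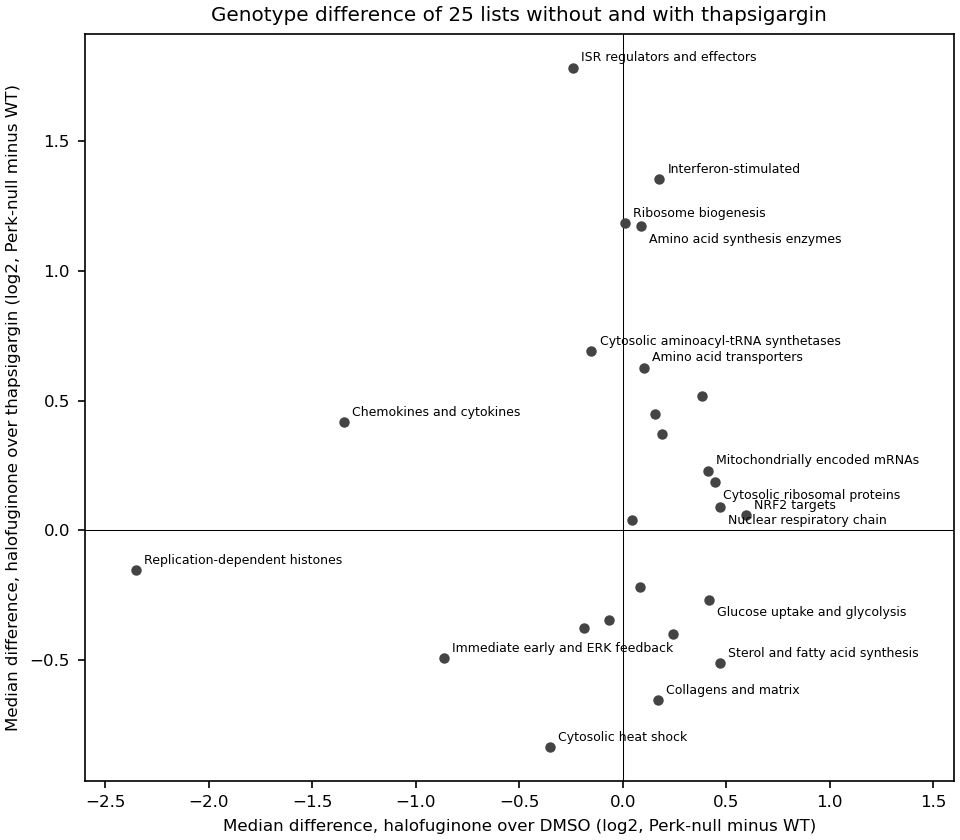
Median genotype difference (Perk-null minus WT, log2) of 25 gene lists for halofuginone over DMSO (x axis) and halofuginone with thapsigargin over thapsigargin (y axis), each from its own 12 libraries; lists far from 0 on an axis are named. ISR regulators lie at -0.24 and 1.78, and histones at -2.35 and -0.15.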

How the data were processed

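Per the labels' protocols, RNA came from a Zymo Quick-RNA kit and went into DNBSEQ libraries that keep strand, with ribosomal depletion and mRNA selection both named. The authors deposited unscaled estimated counts for 36930 gene entries, writing 0.025 for 0. The submitters' processing notes name GRCm39 and DESeq; the aligner, counter and use of strand are not given in the sources used here. For this comparison 27 entries named by dates or numbers (0.206% to 0.278% of counts) were left out, 39 repeated symbols were summed and counts were rounded. edgeR 4.0.16 in R 4.3.3 (filterByExpr, TMM, robust quasi-likelihood, 12 group means over all 36 libraries, 24 residual degrees of freedom) tested 16065 genes, with Benjamini-Hochberg adjustment over all of them within a contrast and a threshold of 0.05. Positive differences mean a more positive Perk-null response, and SE is the log2 value over the root of F. The code was also run on simulated data with independent libraries and few changed genes. That setting is simpler than these data, so the run does not bear on the calls here. A group with at most 3 counts in every library lies at the floor, which covers counting error only. Named genes are 13 ISR readouts, the 2 largest differences in each direction within each carrier class, and the 2 largest called in each list (average log2 CPM of at least 2); 1 gene that the rule names is not reported here. Genes, lists (730 of 734 listed genes tested) and the comparison were chosen with earlier results of these data known. Same-numbered WT DMSO and halofuginone libraries deviated together (r = 0.22, 0.455 and 0.495). Differently numbered WT libraries ran from -0.464 to 0.197. The highest of these, WT DMSO 2 with WT halofuginone 1, was close to the value of replicate 1, so pairing by number is uncertain there. The labels do not say what same-numbered libraries share. Symbols of 14250 tested genes matched RefSeq GRCm38.p6, which was used for overlaps and promoters only. Transcript lengths and GC percent came from GENCODE M21. Alternatives were DESeq2 1.42.0, other scalings, filters, libraries in the fit, replicate blocks and leaving out each library; those for gene lists were chosen after seeing the data.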

Additional observations from a re-analysis of the deposited data

Results flagged for a closer look

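The response to halofuginone differed between the genotypes by edgeR's test of the difference itself in 5615 genes. Among the genes named by the rule, 5 moved in opposite directions with both responses called. The difference (Perk-null response minus WT response, log2) was 3.39 for Cyp26b1 and 2.88 for Mamdc2, which fell in all WT libraries and rose in all Perk-null libraries relative to DMSO. It was -2.98 for Peg10 and -2.38 for Pkp3, which rose in WT and fell in Perk-null cells without overlap of halofuginone and DMSO libraries. It was -0.79 for Hspa4l, whose Perk-null fall lost its call in 4 of the 12 fits that left out 1 library. Groups of 3 libraries had no formal outlier test, though each library's distance from its group mates was measured and each was left out in turn.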

How the results depend on the processing

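The count of genes with a genotype difference was 2318 when an absolute log2 difference of at least 1 was also required, and it ran from 4630 to 5766 with each library left out (lowest without WT halofuginone 3). With replicate numbers as a block it was 7292 within genotype and 6867 when shared by both genotypes. Same-numbered Perk-null libraries correlated at 0.179, 0.0949 and 0.141, weaker than in WT but above differently numbered ones (-0.182 to 0.0494). Across genotypes, same-numbered libraries correlated at -0.0251, 0.477 and 0.455 in DMSO and at 0.127, 0.278 and 0.266 under halofuginone. The main fit holds no block, and the labels do not say what a number shares. The block changed no call of a named gene's difference, and it added a call of the Perk-null response for Arc and Ddit4 (both blocks) and for Sdf2l1 and Zfp354c (within genotype). Genes larger in Perk-null cells numbered 207 and 162 under the 2 blocks, and 62 to 91 with each library left out. Opposite responses numbered 453 and 367 under the blocks, and genes with neither response called numbered 118 without a filter on low counts. WT carried 82.4% to 87.8% of the called genes in all 21 fits. Scaling by library size moved the median of all genes by 0.10 in the difference, to 5824 calls of which 59.2% were positive, against 50% with TMM. All 71 called differences of named genes kept their call under the 8 alternatives that kept every library. No difference or response of a named gene that was called reversed its sign in these fits. Depth limits the genes at the floor, where only bounds can be given, and the absence of dose and time in the labels limits comparison with other data.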
